A study of Craterostigma plantagineum with 12 samples.

Results

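The transcripts described here are the large heat shock chaperones of Craterostigma plantagineum leaves, the HSP70, HSP90 and HSP100 families. Members were the contigs of the assembled transcriptome whose green plant description names one of these families, the luminal-binding proteins, endoplasmin or a Clp chaperone, and 142 of the 48045 contigs in the table carry such a description. By the words of the description, 80 were HSP70 contigs, 32 HSP90 contigs and 18 HSP100 contigs. A further 12 were co-chaperones whose names include HSP70 or HSP90. The compartment, where a description names it, was the endoplasmic reticulum (ER) for 17 contigs, mitochondria for 14 and plastids for 22. The remaining 89 gave no compartment. They are called cytosolic or unassigned below, although no description names the cytosol. A contig is an assembled piece of a transcript and not a gene: members were 304 to 3825 bases long with a median of 562.5, and several contigs with the same description can be pieces of 1 gene. The best database hit behind the description named the same family for 97 members, used other wording for 4 and did not name it for 41.

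HSP70 proteins bind unfolded stretches of other proteins and release them in cycles driven by ATP, with J proteins delivering the clients and nucleotide exchange factors resetting the cycle. HSP90 proteins act later, on proteins that are already partly folded, and receive many of them from HSP70 through the organizing protein HOP. HSP100 proteins of the ClpB type pull proteins back out of aggregates, whereas plastid ClpC and ClpD are unfolding partners of the Clp protease. Each compartment has its own set, such as the luminal-binding protein BiP and the HSP90 protein endoplasmin in the ER lumen.

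The leaves of this resurrection plant can dry out almost completely and resume growth. They were collected in 4 states from plants multiplied vegetatively. Untreated leaves had 100% relative water content (RWC). Drying in the pot for 3 to 4 days gave 60% RWC, 15 days of drying gave 2% RWC, and desiccated plants were then kept under water for 24 h. Every state had 3 libraries, each from its own pool of leaves of 6 to 9 plants. No watered plants of the same age as the dried ones are among the samples, so water content and time in the experiment cannot be told apart. These states are called fresh, 60%, 2% and rehydrated leaves below.

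The libraries held 14784251 to 21271288 reads counted to contigs, and 46494 contigs, all 142 members among them, had enough reads to be tested. Levels are given as RPKM, reads scaled by contig length and library size, the only scale here on which levels of different contigs may be compared. Fold changes come from 1 edgeR quasi-likelihood fit to the read counts of all 12 libraries and are given as log2 fold with its standard error. The 4 states share 1 estimate of the spread in this fit, also where 2 states other than fresh are compared. A member is said to have risen or fallen where this test gave an adjusted p below 0.05 after Benjamini-Hochberg adjustment over all tested contigs. The fit rescales libraries and the RPKM values do not, so ratios of RPKM can differ from fitted folds. Leaf photosynthesis contigs (28, small Rubisco subunit and chlorophyll-binding proteins) took 1.71 to 2.97% of reads in fresh leaves, 0.396 to 0.447% at 60%, 0.25 to 0.372% at 2% and 1.3 to 1.89% in rehydrated leaves. In whole leaves a smaller share of a cell type and less of a transcript per cell cannot be told apart.

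The 3 fresh libraries were spread more widely in these transcripts than the libraries of the other states. The median member had a highest fresh value 3.41 times its lowest, against 1.23 times at 60%, 1.24 times at 2% and 1.57 times in rehydrated leaves. The split went by compartment. Fresh replicate 1 stood more than 3-fold above both other fresh libraries for 28 members, and every one of these was cytosolic or without a named compartment: 18 HSP70, 3 HSP90, 4 ClpB1 and 3 co-chaperone contigs. This was 19.7% of members, against 3.35% of all tested contigs. Fresh replicate 2 stood more than 3-fold above both others for 18 members (12.7%, against 4.7% of all tested contigs), among them 4 endoplasmin contigs, 4 contigs of plastid HSP90-5, 3 mitochondrial contigs, 4 plastid HSP100 contigs and 3 co-chaperone contigs. Fresh replicate 3 did so for 1 member. What set the fresh pools apart was not tested. Results that rest on a fresh library are therefore given with and without it.

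**Figure D1:**
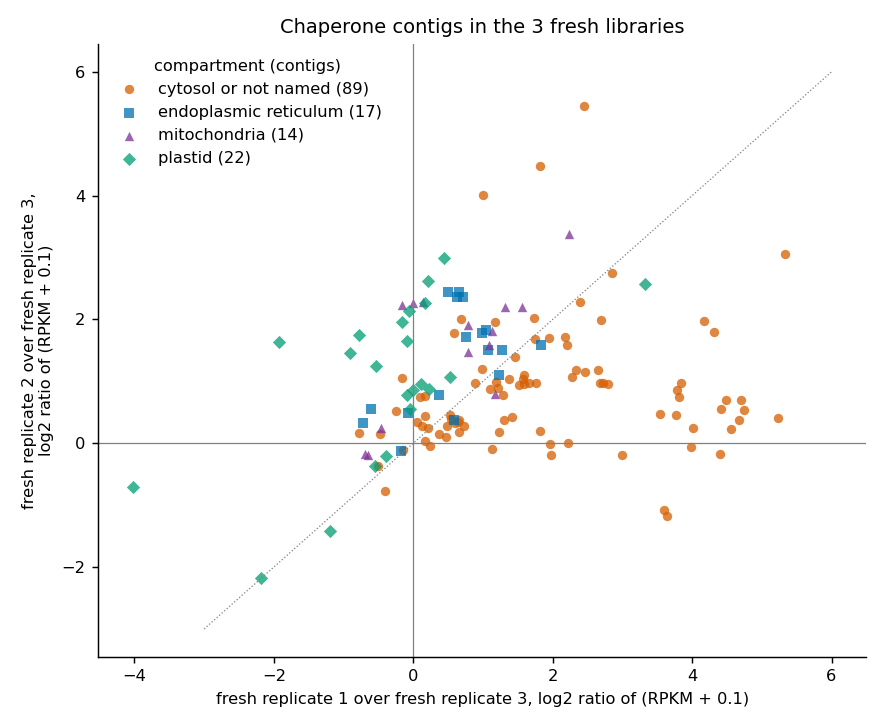
Fresh libraries compared with each other: each point is a member, placed by the log2 ratio of fresh replicate 1 over fresh replicate 3 (x axis) and of fresh replicate 2 over fresh replicate 3 (y axis), both of RPKM plus 0.1, and coloured by compartment. The arm of points far to the right holds only cytosolic or unassigned members and is highest in replicate 1, while the points far above the dotted diagonal, highest in replicate 2, are mostly ER, mitochondrial and plastid members with 3 co-chaperones among them.

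Over all 4 states at once, 84 of the 142 members differed (59.2%, against 71.6% of all tested contigs). In each separate comparison members changed in both directions. At 60% against fresh, 26 members rose and 26 fell, 36.6% of them, against 38.9% of all tested contigs (15.6% higher and 23.3% lower); their median log2 fold was 0.15, against -0.06 for all contigs. At 2% against fresh, 28 rose and 36 fell, 45.1% against 60.9% of all (26.0% higher, 34.9% lower). At 2% against 60%, 19 rose and 27 fell, 32.4% against 44.5% (19.5% higher, 25.0% lower). After rehydration, against 2% leaves, 25 rose and 32 fell, 40.1% against 56.5% (31.1% higher, 25.4% lower). In rehydrated against fresh leaves, 12 rose and 10 fell, 15.5% against 9.41% (3.71% higher, 5.69% lower). The comparisons share libraries, so their counts are not independent of each other.

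These counts depended on single libraries. Without fresh replicate 1, the members that rose at 2% against fresh numbered 56 (25.5% of all tested contigs rose), those that rose at 2% against 60% numbered 33 (21.8%), those that rose in rehydrated against fresh leaves numbered 29 (3.46%), and those that fell at 60% against fresh numbered 16 (19.9%). Without fresh replicate 2, 42 members rose at 60% against fresh (20.9% of all tested contigs) and 34 rose in rehydrated against fresh leaves (10.9%). Without fresh replicate 3, 50 members fell in rehydrated against 2% leaves (28.8% of all tested contigs), and 6 rose and 20 fell in rehydrated against fresh leaves (4.32 and 7.63%). Leaving out any 60% library left 15 to 17 members lower at 60% against fresh, and without 60% replicate 2, 17 fell at 2% against 60%. Between rehydrated and fresh leaves, leaving out 1 library at a time gave 2 to 34 members higher and 2 to 20 lower. Of the 241 calls in the 5 comparisons, 151 held without any 1 library.

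**Figure D2:**
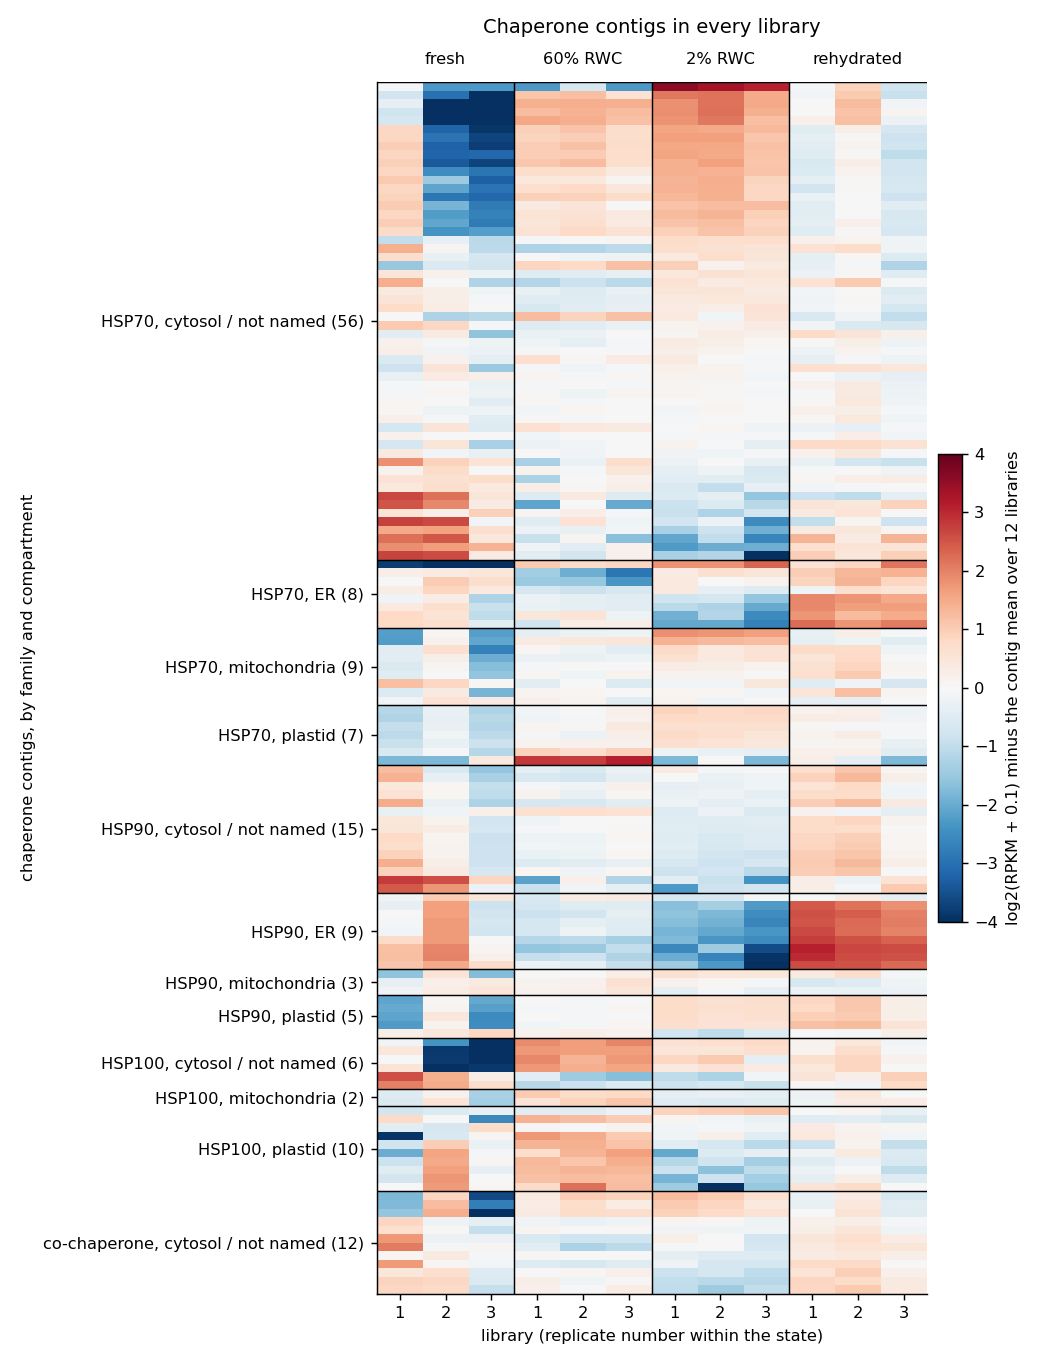
Members by library: rows are the 142 contigs grouped by family and compartment, columns the 12 libraries, and colour the log2(RPKM + 0.1) minus the contig's own mean over the libraries, limited at 4 either way. Most ER contigs are highest in the 3 rehydrated columns, most stromal HSP70 contigs in the 3 columns at 2%, and the uneven colours within the 3 fresh columns show how far the fresh libraries differ.

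As shares of all reads, the members of the 3 families peaked in different states. The 80 HSP70 contigs took 0.969, 0.652 and 0.415% of reads in the fresh libraries, 0.634, 0.646 and 0.638% at 60%, 1.10, 1.09 and 1.02% at 2%, and 0.803, 0.895 and 0.638% in rehydrated leaves. The 32 HSP90 contigs took 0.493, 0.561 and 0.319% of reads in rehydrated leaves, against 0.257, 0.236 and 0.241% at 2%. The 18 HSP100 contigs took 0.0556 to 0.0688% in fresh leaves, 0.097 to 0.106% at 60%, 0.0683 to 0.0708% at 2% and 0.0558 to 0.066% in rehydrated leaves. Among the sampled states, then, the summed HSP70 members were highest at 2%, HSP90 in rehydrated leaves and HSP100 at 60%. For HSP90, fresh replicate 1 (0.37%) lay above rehydrated replicate 3. The HSP100 sum leaves out 8 ClpC-type contigs described as ClpA homolog CD4B, which the member rule did not match. Of these, contig 252 had 190 to 223 RPKM at 60% and 556 to 572 RPKM at 2%, and contig 1459 had 352 to 408 and 319 to 377 RPKM. The state in which the whole HSP100 family peaked is therefore not given by this sum. Contig 458 alone, a cytosolic heat shock cognate 70 contig, held 24.2% of all HSP70 reads.

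Among the compartments, the ER contigs had the widest change in summed reads between desiccation and rehydration: 0.213, 0.19 and 0.186% of reads in rehydrated leaves, against 0.05, 0.0502 and 0.0525% at 2%. Endoplasmin is the HSP90 protein of the ER lumen, known as GRP94 in animals. Its 9 contigs together took 0.0787, 0.0667 and 0.0567% of reads in rehydrated leaves, against 0.00385, 0.0033 and 0.00218% at 2%. Of the 9, 8 rose in rehydrated against 2% leaves, beside 31.1% of all tested contigs, and these 8 calls held without any 1 library. The median log2 fold was 4.02, against 0.13 for all contigs. At 2% against fresh, 8 of the 9 fell, with a median of -2.47, against -0.22 for all contigs, of which 34.9% fell. The same 8 contigs had their highest mean in rehydrated leaves.

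Endoplasmin contig 8511 had 36.1, 70.7 and 21.4 RPKM in fresh leaves, 9.64, 10.4 and 8.39 RPKM at 60%, 6.25, 4.18 and 3.65 RPKM at 2%, and 147, 126 and 110 RPKM in rehydrated leaves. The rehydrated libraries lay above all 9 others, and the 2% libraries below all others. By the quasi-likelihood test of edgeR with Benjamini-Hochberg adjustment, it fell by 2.03 on the log2 scale at 60% against fresh (SE 0.34, adjusted p = 0.000746) and by 2.93 at 2% against fresh (SE 0.35, adjusted p = 3.1e-05). In rehydrated against 2% leaves it rose by 4.38 (SE 0.37, adjusted p = 3.36e-06). It was also higher in rehydrated than in fresh leaves, by 1.45 (SE 0.33, adjusted p = 0.0205), but that call was lost without rehydrated replicate 1 or 2.

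Endoplasmin contig 11070 had 114, 88.4 and 84.4 RPKM in rehydrated leaves, against 3.59, 2.17 and 0.852 RPKM at 2%. Its rise of 5.03 (SE 0.49, edgeR adjusted p = 9.05e-06) was the highest fold of any member in that comparison, and it fell by 1.59 at 2% against 60% (SE 0.46, edgeR adjusted p = 0.0158), where it had 7.53, 8.1 and 6.23 RPKM. Contig 5562 held 40.3% of endoplasmin reads and had 172, 147 and 125 RPKM in rehydrated leaves, against 9.18, 8.04 and 4.79 RPKM at 2%, a rise of 3.95 (SE 0.50, edgeR adjusted p = 5.28e-05). It lay at 29.5, 98 and 19 RPKM in fresh leaves, so its fall at 2% against fresh, 2.44 with all libraries (SE 0.47, edgeR adjusted p = 0.000891), was -1.60 without fresh replicate 2. Contig 23533 had 143, 131 and 99.6 RPKM in rehydrated leaves, against 7.92, 6.99 and 4.31 RPKM at 2%, and rose by 3.89 (SE 0.49, edgeR adjusted p = 5.62e-05). The ninth contig, 26776, stayed between 1.72 and 5.77 RPKM in all 12 libraries and passed no test with all libraries, though its fall at 2% against fresh passed without fresh replicate 1.

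The counts for endoplasmin at 60% turned on single libraries. At 60% against fresh 4 of the 9 fell (23.3% of all tested contigs), and 8 did without fresh replicate 3, where 24.0% of all tested contigs fell. At 2% against 60% 5 fell (25.0% of all tested contigs). There 1 to 3 fell without any one of the 60% libraries and 2 without 2% replicate 2 or 3. Rehydrated against fresh, 2 rose (3.71% of all tested contigs), and both calls were lost without rehydrated replicate 1 or 2. Without fresh replicate 2, 7 rose (10.9% of all tested contigs), and 1 did without fresh replicate 1 or 3.

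BiP is the HSP70 protein of the ER lumen and helps newly made proteins fold there. The 8 contigs described as luminal-binding protein took 0.135, 0.123 and 0.129% of reads in rehydrated leaves, against 0.0462, 0.0469 and 0.0503% at 2%. Contig 39236, of uncertain name, gave the most reads of this sum at 2%, 4895, 5760 and 5744. Contig 1592 gave 2602, 3271 and 1227 there. In rehydrated leaves contig 39236 had 2000, 2164 and 5874 reads and contig 1592 had 16409, 13322 and 12318. After rehydration 4 of the 8 rose against 2% leaves, while 31.1% of all tested contigs rose. They showed 3 patterns, grouped after their values were seen.

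The first pattern was that of endoplasmin. Contig 1592, with 55.3% of BiP reads, had 119, 161 and 56.7 RPKM in fresh leaves, 112, 104 and 99.4 RPKM at 60%, 75.8, 81.3 and 43.9 RPKM at 2%, and 507, 453 and 377 RPKM in rehydrated leaves. Its 3 drying comparisons passed no test with all libraries, with log2 folds of 0.02, -0.51 and -0.54; that at 2% against fresh passed without fresh replicate 3. In rehydrated leaves it rose by 2.35 against 2% (SE 0.34, edgeR adjusted p = 0.000125) and by 1.83 against fresh leaves (SE 0.33, edgeR adjusted p = 0.007), and the lowest rehydrated library lay above every other library.

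BiP contig 2514 had 40.2, 29.1 and 36.4 RPKM in rehydrated leaves, against 1.98, 1.97 and 1.22 RPKM at 2%, a rise of 3.94 (SE 0.42, edgeR adjusted p = 1.61e-05). At 2% it fell by 2.14 against 60% (SE 0.42, edgeR adjusted p = 0.00182), where it had 4.86, 10.2 and 10.1 RPKM. Contig 2513 rose by 2.78 in rehydrated against 2% leaves (SE 0.35, edgeR adjusted p = 5.14e-05), with 112, 92.5 and 93 RPKM against 13.7, 12.4 and 7.1 RPKM.

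The second pattern was a low at 60%. Contig 30979, described as BiP4, had 10.1, 21 and 16.7 RPKM in fresh leaves, 3.66, 3.53 and 1.98 RPKM at 60%, 13.6, 10.3 and 11.3 RPKM at 2%, and 19.4, 26.9 and 18.9 RPKM in rehydrated leaves. The 60% libraries lay below all others. It fell by 2.25 at 60% against fresh (SE 0.29, edgeR adjusted p = 0.000118) and rose by 2.04 at 2% against 60% (SE 0.28, edgeR adjusted p = 0.000202). Contig 41416 did the same, with a fall of 2.22 at 60% against fresh (SE 0.33, edgeR adjusted p = 0.00033) and a rise of 2.60 at 2% against 60% (SE 0.33, edgeR adjusted p = 0.000108). The Arabidopsis match of contig 30979 is a Rossmann-fold protein and not BiP, so its name is uncertain.

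The third pattern was a contig nearly absent from fresh leaves. Contig 39236 had 3.89, 3.38 and 2.57 RPKM in fresh leaves, 114, 93.3 and 99.4 RPKM at 60%, 190, 191 and 273 RPKM at 2%, and 82.2, 97.9 and 239 RPKM in rehydrated leaves. It rose by 6.26 at 2% against fresh (SE 0.47, edgeR adjusted p = 1.28e-06), the highest fold of any member in that comparison. In rehydrated leaves it was still 5.24 above fresh leaves (SE 0.45, edgeR adjusted p = 6.1e-05). It was lower in rehydrated than in 2% leaves by a log2 fold of -1.03, a call lost without 2% replicate 2 or 3 or without rehydrated replicate 1 or 2, and -1.68 without rehydrated replicate 3. Its best hit is an HSP70-related protein of sunflower, with no ER named.

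Guard cell contigs (9, of which 8 are stomatal closure-related actin-binding proteins and 1 is the anion channel SLAC1) took 0.00843 to 0.011% of reads in rehydrated leaves, against 0.000514 to 0.000606% at 2%. They took 0.00476 to 0.00693% in fresh leaves and 0.00127 to 0.00163% at 60%. The summed ER contigs took 0.0268 to 0.0856% in fresh leaves and 0.0464 to 0.0507% at 60%. Photosynthesis contigs and epidermis and cuticle contigs (114, 0.122 to 0.138% against 0.0603 to 0.0694%) also took more in rehydrated than in 2% leaves. Vascular contigs (37) took less, 0.0166 to 0.0179% against 0.0267 to 0.0346%. The part of these lists in the ER result was not tested.

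**Figure D3:**
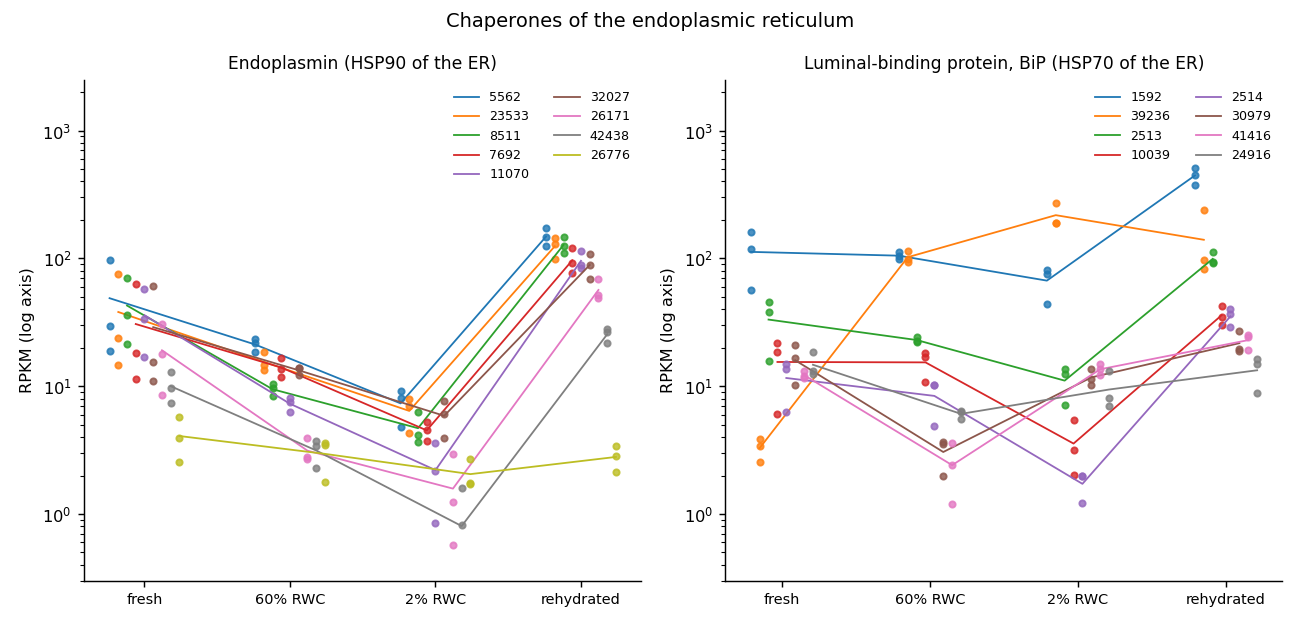
Levels of endoplasmin and BiP contigs in the 4 states, in RPKM on a log axis; points are libraries and lines join the means of 3 libraries. The means of all endoplasmin contigs are lowest at 2% and those of all but 26776 highest in rehydrated leaves, as are those of BiP contigs 1592, 2513 and 2514, while contigs 30979 and 41416 are lowest at 60% and contig 39236 is low only in fresh leaves.

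Plastid HSP70 rose with drying. The stromal HSP70 helps fold proteins inside the chloroplast and takes part in their import. All 7 of its contigs rose at 60% against fresh, beside 15.6% of all tested contigs, and the 7 calls held without any 1 library. Their median log2 fold was 0.99, against -0.06 for all contigs. At 2% against fresh 5 rose, with a median of 1.59 against -0.22 for all contigs, of which 26.0% rose. After rehydration 5 fell against 2% leaves, beside 25.4% of all tested contigs, and these 5 calls also held without any 1 library. The median there was -0.96, against 0.13 for all contigs.

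Contig 181, with 72.4% of stromal HSP70 reads, had 249, 376 and 257 RPKM in fresh leaves, 510, 525 and 519 RPKM at 60%, 716, 681 and 634 RPKM at 2%, and 496, 499 and 377 RPKM in rehydrated leaves. The 2% libraries lay above all others and the 60% libraries above all fresh ones. By the quasi-likelihood test of edgeR, adjusted in the same way, it rose by 0.94 at 60% (SE 0.17, adjusted p = 0.00118) and by 1.44 at 2% against fresh (SE 0.17, adjusted p = 2.71e-05), and fell by 0.96 in rehydrated against 2% leaves (SE 0.17, adjusted p = 0.000518).

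Contig 5616 had 242, 224 and 233 RPKM at 2%, against 122, 129 and 151 RPKM at 60% and 59.6, 107 and 55.2 RPKM in fresh leaves. It rose by 1.90 at 2% against fresh (SE 0.21, edgeR adjusted p = 1.65e-05) and by 0.91 at 2% against 60% (SE 0.20, edgeR adjusted p = 0.00377). Contigs 17890 and 13786 followed the same order of states. At 2% against 60%, 5 of the 7 rose (19.5% of all tested contigs), but 2 or 3 did without 60% replicate 1 or 2 or without 2% replicate 2 or 3.

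Of the rest, 2 contigs had their highest mean at 60%. Contig 17958, the longest member at 3825 bases, had 14.3, 12.2 and 14.5 RPKM at 60%, against 4.86, 7.14 and 3.34 RPKM in fresh leaves, and rose by 1.54 (SE 0.24, edgeR adjusted p = 0.000559). At 2% it had 6.52, 6.24 and 5.98 RPKM and fell by 1.01 against 60% (SE 0.24, edgeR adjusted p = 0.00556). Contig 44480 had 16, 13 and 18 reads in the 60% libraries and at most 2 reads in every other library.

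HSP90-5 is the plastid HSP90. Contig 14212, with 71.5% of its reads and 22.0% of all HSP90 reads, had 70.2, 301 and 62.5 RPKM in fresh leaves, 272, 275 and 291 RPKM at 60%, 464, 443 and 439 RPKM at 2%, and 494, 589 and 331 RPKM in rehydrated leaves. Fresh replicate 2 lay at the level of the 60% libraries and the other fresh libraries far below it. The contig rose by 1.94 at 2% against fresh (SE 0.46, edgeR adjusted p = 0.00343), and by 2.89 without fresh replicate 2. At 60% against fresh the fold was 1.14 (edgeR adjusted p = 0.0644) with all libraries and 2.09 (edgeR adjusted p = 2.21e-05) without fresh replicate 2. Contig 8423 behaved alike, with 243, 224 and 239 RPKM at 2%, against 33.8, 156 and 35.4 RPKM in fresh leaves. So did contigs 20082 and 8422, which rose by 1.93 (SE 0.51, edgeR adjusted p = 0.00674) and 1.74 (SE 0.57, edgeR adjusted p = 0.0195) at 2% against fresh, the call for 8422 being lost without fresh replicate 1.

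Of the 5 HSP90-5 contigs, 4 rose and 1 fell at 2% against fresh, beside 26.0 and 34.9% of all tested contigs. The one that fell was contig 3072, with 11.4, 9.67 and 13.4 RPKM at 2%, against 23.7, 27.1 and 34.9 RPKM in fresh leaves, a log2 fold of -1.10 (SE 0.20, edgeR adjusted p = 0.000517). It also fell at 2% against 60%, by 0.85 (SE 0.19, edgeR adjusted p = 0.00428). Rehydrated against fresh, 3 of the 5 rose (3.71% of all tested contigs), 4 without fresh replicate 2 (10.9%). All these calls were lost when any one of the other 11 libraries was left out. Between rehydrated and 2% leaves contig 14212 had a log2 fold of -0.32 and passed no test.

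Mitochondrial HSP70, which pulls proteins into the mitochondrial matrix and folds them, took its largest summed share of reads in desiccated leaves. The 9 contigs took 0.0871, 0.0834 and 0.0777% of reads at 2%, against 0.0318, 0.0336 and 0.0341% at 60% and 0.0114, 0.0357 and 0.00843% in fresh leaves. At 2% against fresh 5 of the 9 rose, and 4 to 7 did when any 1 library was left out. Their median log2 fold was 1.02, against -0.22 for all contigs, of which 26.0% rose. By mean level 4 were highest at 2%, 3 in rehydrated and 2 in fresh leaves. After rehydration 4 fell against 2% leaves, and 2 to 5 did when any 1 library was left out. The median there was -0.47, against 0.13 for all contigs, of which 25.4% fell.

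Contig 16713, with 50.5% of mitochondrial HSP70 reads, had 13.2, 64.2 and 13.3 RPKM in fresh leaves, 48.2, 52.1 and 53.9 RPKM at 60%, 217, 211 and 193 RPKM at 2%, and 50, 72.1 and 59.6 RPKM in rehydrated leaves. The 2% libraries stood apart from all others. It rose by 2.12 at 2% against 60% (SE 0.46, edgeR adjusted p = 0.00341) and fell by 2.16 in rehydrated against 2% leaves (SE 0.46, edgeR adjusted p = 0.00203). Against fresh leaves the rise at 2% was 3.08 (SE 0.48, edgeR adjusted p = 0.00022), and 4.10 without fresh replicate 2. At 60% against fresh it did not pass with all libraries (log2 fold 0.96, edgeR adjusted p = 0.114) and rose by 1.97 without fresh replicate 2 (edgeR adjusted p = 5.52e-06).

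Contig 16392 had 55.8, 59.6 and 60 RPKM at 60% and 113, 106 and 101 RPKM at 2%, against 9.13, 48.3 and 10.2 RPKM in fresh leaves. Its fold at 60% against fresh was 1.57 (SE 0.46, edgeR adjusted p = 0.0185), lost without fresh replicate 3 and 2.62 without fresh replicate 2. In rehydrated leaves it had 33.5, 37.1 and 31 RPKM and fell by 2.04 against 2% (SE 0.46, edgeR adjusted p = 0.00288). Contigs 6941 and 16681 had their highest mean after rehydration. Contig 6941 had 39.1, 46.6 and 27.5 RPKM in rehydrated leaves and 32, 30.4 and 28.1 RPKM at 2%, against 17.4, 27.9 and 7.88 RPKM in fresh leaves, and rose by 1.02 at 2% against fresh (SE 0.33, edgeR adjusted p = 0.0189). Contig 16681 had 54.5, 69.7 and 35.0 RPKM in rehydrated leaves, against 37.1, 37.1 and 33.4 RPKM at 2%, and with all libraries passed only at 2% against fresh, a call lost without fresh replicate 3 and without 7 of the other libraries. A contig described only as HSP70, number 3866, matches the Arabidopsis mitochondrial HSP70-1 and showed a similar order: 86.7, 136 and 81.1 RPKM in fresh leaves, 166, 167 and 182 RPKM at 60%, 283, 271 and 280 RPKM at 2%, and 194, 187 and 154 RPKM in rehydrated leaves. It rose by 1.70 at 2% against fresh (SE 0.17, edgeR adjusted p = 9.42e-06).

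The mitochondrial HSP90, HSP90-6, had 3 contigs. Contig 13997, with 81.1% of their reads, had 43, 38.3 and 38.4 RPKM at 2%, against 9.24, 41.3 and 8.4 RPKM in fresh leaves, where fresh replicate 2 overlapped the desiccated libraries. Its fold of 1.32 (SE 0.45, edgeR adjusted p = 0.0246) was lost without fresh replicate 1 or 3 or 2% replicate 1, and was 2.31 without fresh replicate 2. Contig 7050 had 12.2, 13.2 and 16.8 RPKM in rehydrated leaves, against 21.7, 19.9 and 17.9 RPKM at 2%, and fell by 0.88 (SE 0.22, edgeR adjusted p = 0.00531). Contig 4023 stayed within 14.1 to 26.3 RPKM in all 12 libraries and passed no test with all of them.

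The cytosolic HSP70 contigs, 56 with those that name no compartment, changed in both directions. At 60% against fresh 9 rose and 11 fell, 35.7% called in all, against 38.9% of all tested contigs (15.6% higher, 23.3% lower). Without fresh replicate 1 the counts were 20 and 6 (13.7 and 19.9% of all tested contigs). Without 60% replicates 1 and 2, 5 and 6 fell. At 2% against fresh 9 rose and 10 fell, 33.9% called in all, against 60.9% of all tested contigs (26.0% higher, 34.9% lower). Without fresh replicate 1 the counts were 33 and 9 (25.5 and 33.2% of all tested contigs). At 2% against 60% 9 rose and 3 fell, 21.4% called in all, against 44.5% of all tested contigs (19.5% higher, 25.0% lower). Without fresh replicate 1 the counts were 20 and 4 (21.8 and 27.1% of all tested contigs). After rehydration 5 rose and 20 fell against 2% leaves, 44.6% called in all, against 56.5% of all tested contigs (31.1% higher, 25.4% lower). Without fresh replicate 1 the counts were 5 and 32 (32.8 and 27.1% of all tested contigs). Those lower numbered 33 without fresh replicate 3, 12 or 13 without any one of the 2% libraries, and 13 and 11 without rehydrated replicates 1 and 3. By mean level, 27 of the 56 were highest at 2%, 15 in fresh leaves, 10 in rehydrated leaves and 4 at 60%.

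One group, which held the contigs with the highest and the next highest mean level, had its low at 60%. Contig 458 had 1904, 1580 and 1263 RPKM in fresh leaves, 938, 944 and 1028 RPKM at 60%, 1681, 1756 and 1782 RPKM at 2%, and 1193, 1364 and 986 RPKM in rehydrated leaves. Its fresh libraries overlapped the 2% libraries, and the 60% libraries lay below all fresh and 2% ones. It rose by 0.96 at 2% against 60% (SE 0.21, edgeR adjusted p = 0.00327) and fell by 0.95 in rehydrated against 2% leaves (SE 0.21, edgeR adjusted p = 0.00227).

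Contig 89 had 832, 774 and 736 RPKM at 2%, against 216, 228 and 245 RPKM at 60%, a rise of 1.88 (SE 0.51, edgeR adjusted p = 0.0112). Its fresh libraries held 1367, 554 and 248 RPKM, and its fall at 60% against fresh of 1.61 did not hold when fresh replicate 1 or any 60% library was left out. Contigs 1337 and 7716 rose by 0.91 and 1.03 at 2% against 60% and fell by 1.04 and 1.11 in rehydrated against 2% leaves, all 4 past the edgeR threshold. Contig 5238, an HSP70 15-like contig of the HSP110 type that aids nucleotide exchange on other HSP70 proteins, stayed within 196 to 353 RPKM in all 12 libraries and passed no test with all of them; without fresh replicate 1 its log2 fold at 2% against fresh was 0.54 (edgeR adjusted p = 0.0225).

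A second group was low in fresh replicates 2 and 3 and high in every dried library. Contig 1762 had 548, 29.5 and 20.3 RPKM in fresh leaves, 555, 633 and 462 RPKM at 60%, 816, 814 and 628 RPKM at 2%, and 210, 306 and 161 RPKM in rehydrated leaves. Fresh replicate 1 lay inside the range of the 60% libraries. With all libraries the fold at 60% against fresh was 1.44 (SE 0.96, edgeR adjusted p = 0.26), and without fresh replicate 1 it was 4.66 (SE 0.32, edgeR adjusted p = 2.17e-06). Contigs 1791 and 2671 had the same shape, at 249, 25 and 18.2 RPKM and 229, 13.8 and 14.4 RPKM in fresh leaves.

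Some contigs with a high fresh replicate 1 passed the test with all libraries in place. Contig 24772 had 31.3, 34.4 and 31.5 RPKM at 60%, against 7.58, 0.202 and 0.537 RPKM in fresh leaves, and all 3 fresh libraries lay below all others. At 2% it had 48.7, 61.7 and 35.7 RPKM and rose by 4.23 against fresh (SE 0.95, edgeR adjusted p = 0.00259), or by 7.33 without fresh replicate 1. Contig 13823 rose by 3.81 at 2% against fresh (SE 1.08, edgeR adjusted p = 0.00965), with 59.3, 74.5 and 47.6 RPKM against 13.1, 0.368 and 0.252 RPKM, or by 7.86 without fresh replicate 1. Its call at 60% against fresh was lost without any one of the 60% libraries. Contigs 20296 and 39072, named after their values were seen, rose by 4.00 (SE 0.91, edgeR adjusted p = 0.00276) and 4.25 (SE 0.78, edgeR adjusted p = 0.00067) at 2% against fresh, and by 7.29 and 6.40 without fresh replicate 1. Contig 17709 had 99.2, 102 and 67.2 RPKM at 2%, against 67.3, 8.72 and 4.77 RPKM in fresh leaves, and did not pass there (edgeR adjusted p = 0.0549).

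Other cytosolic HSP70 contigs fell with drying. Contig 8809 had 36.8, 32 and 26.3 RPKM in fresh leaves, 8.99, 7.32 and 11.2 RPKM at 60%, 2.03, 2.46 and 2.49 RPKM at 2%, and 16.2, 14.7 and 14.3 RPKM in rehydrated leaves. The 4 states did not overlap. It fell by 3.56 at 2% against fresh (SE 0.24, edgeR adjusted p = 5.87e-07) and rose by 2.30 in rehydrated against 2% leaves (SE 0.23, edgeR adjusted p = 9.2e-06), yet stayed 1.26 below fresh leaves on the log2 scale (log2 fold -1.26, edgeR adjusted p = 0.00535). Contig 7269 fell by 3.03 in rehydrated against fresh leaves (SE 0.55, edgeR adjusted p = 0.00774), with 1.49, 1.32 and 2.1 RPKM against 18.2, 13.2 and 3.95 RPKM, and the groups did not overlap.

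Low contigs with their highest values in 1 dried state were also present. HSP70-8 contig 13552 had 18.9, 14.8 and 17.8 RPKM at 60%, against 7.94, 3.33 and 3.58 RPKM in fresh leaves, and rose by 1.85 (SE 0.38, edgeR adjusted p = 0.00281). It had 402, 270 and 351 reads at 60%, 226, 185 and 200 at 2%, and 104, 133 and 81 in rehydrated leaves. Without fresh replicate 3 it also rose at 2% against fresh (log2 fold 1.01, edgeR adjusted p = 0.0461). In that fit its fall at 2% against 60% did not pass (edgeR adjusted p = 0.147). Contig 47933, singled out after its values were seen, had 5.77, 4.92 and 4.08 RPKM at 2% and at most 0.816 RPKM in any other library.

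**Figure D4:**
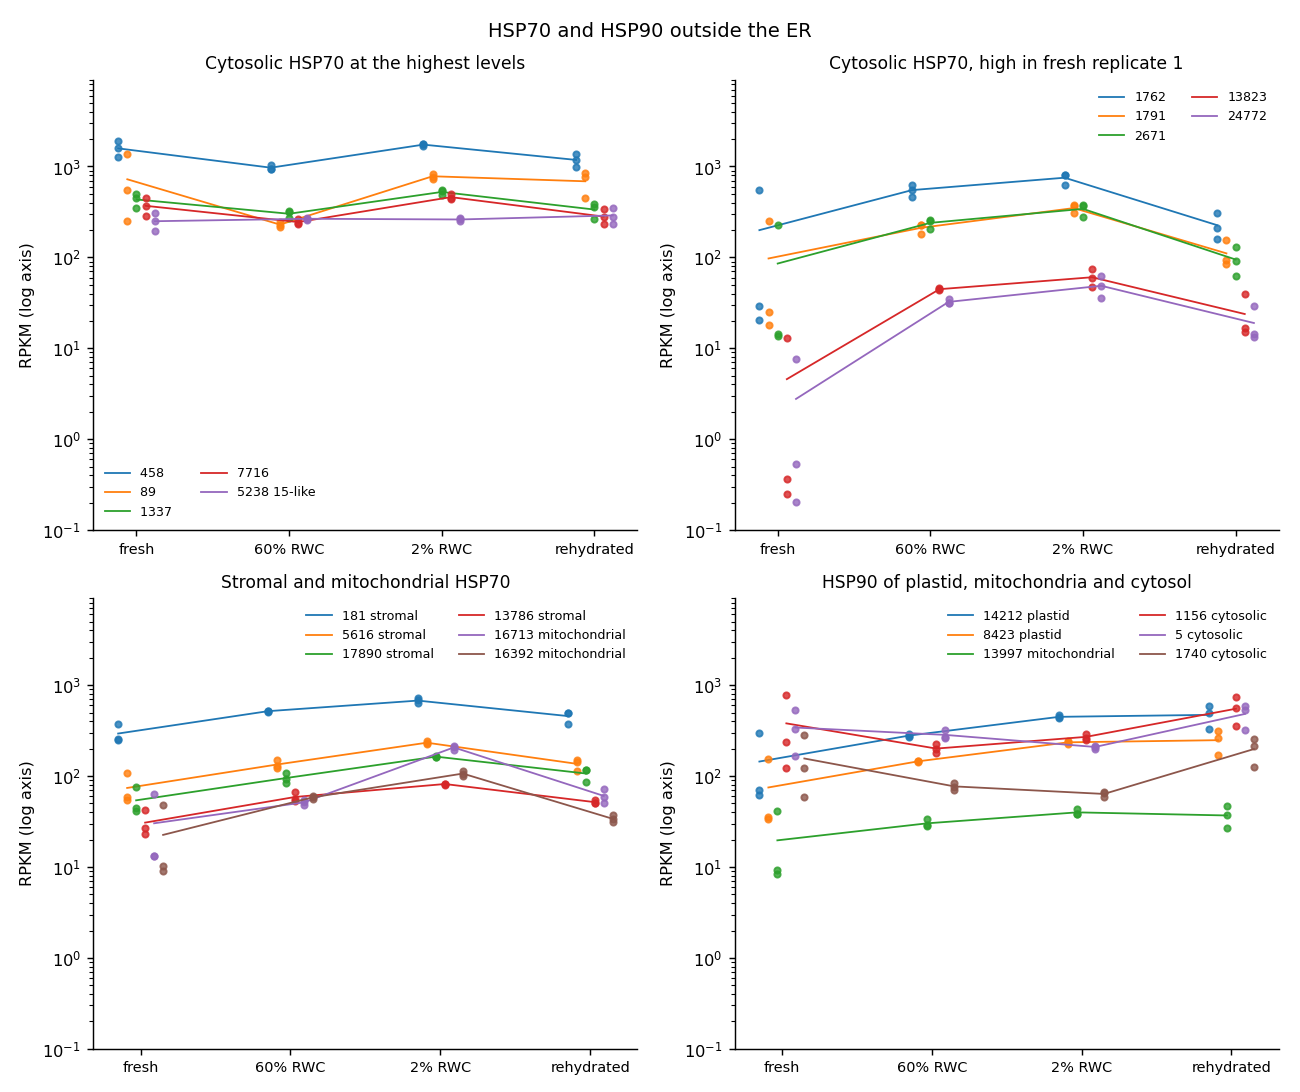
Levels of abundant HSP70 and HSP90 contigs in RPKM on a log axis across the 4 states, with points for libraries and lines through the means of 3. The panels show cytosolic HSP70 contigs, 4 with a low at 60% and the level contig 5238, cytosolic HSP70 contigs whose 3 fresh points spread widely, plastid and mitochondrial HSP70 contigs that are highest at 2%, and HSP90 contigs of plastid, mitochondria and cytosol.

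Cytosolic HSP90 took a larger share of reads after rehydration than in desiccated leaves, whereas cytosolic HSP70 took a smaller one (0.51, 0.603 and 0.382% in rehydrated leaves, against 0.784, 0.787 and 0.724% at 2%). The 15 cytosolic HSP90 contigs took 0.329, 0.145 and 0.0722% of reads in fresh leaves, 0.111, 0.107 and 0.129% at 60%, 0.118, 0.105 and 0.111% at 2%, and 0.27, 0.324 and 0.164% in rehydrated leaves. By mean level 12 of the 15 were highest in rehydrated leaves and 12 of the 15 lowest at 2%. Few passed the test in the fit to all libraries: 3 rose in rehydrated against 2% leaves, or 20.0%, against 31.1% of all tested contigs. Their median log2 fold, over all 15, was 0.81 against 0.13 for all contigs. Without fresh replicate 1 that count was 8, without fresh replicate 3 (31.5% of all tested contigs higher) or rehydrated replicate 3 it was 7, and without any one of the 2% libraries or rehydrated replicates 1 and 2 it was at most 1.

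Contig 1156, described as HSC80, had 779, 240 and 122 RPKM in fresh leaves, 197, 178 and 227 RPKM at 60%, 293, 252 and 266 RPKM at 2%, and 566, 733 and 354 RPKM in rehydrated leaves. All 3 rehydrated libraries lay above all 2% libraries, but no comparison passed the test with all libraries. Without fresh replicate 1 it rose by 0.90 at 2% against fresh (edgeR adjusted p = 0.0228) and by 1.53 in rehydrated against fresh leaves (edgeR adjusted p = 0.0126), and without fresh replicate 3 it fell by 1.33 at 60% against fresh (edgeR adjusted p = 0.0337). Contig 5 had 538, 592 and 318 RPKM in rehydrated leaves, against 217, 200 and 210 RPKM at 2%, a log2 fold of 0.81 (SE 0.37, edgeR adjusted p = 0.0813) that passed without fresh replicate 1 or 3 or rehydrated replicate 3. Contig 1740 had 215, 255 and 125 RPKM in rehydrated leaves, against 67.6, 58.2 and 65.1 RPKM at 2%, and rose (edgeR adjusted p = 0.0436), a call lost without any one of the 60% or 2% libraries or rehydrated replicate 1 or 2. Contig 11441 passed no test, with 293, 346 and 186 RPKM in rehydrated leaves against 159, 163 and 176 RPKM at 2%. Contig 7320 had 96.8, 106 and 49.1 RPKM in rehydrated leaves, against 27.4, 28.8 and 23.2 RPKM at 2%, and rose by 1.27 (SE 0.38, edgeR adjusted p = 0.0143), a call lost without 2% replicate 3 or rehydrated replicate 2. With only these 2 states in the fit, contigs 1740, 7320, 5 and 1156 rose by 1.234, 1.255, 0.801 and 0.622 (edgeR adjusted p = 0.000575, 0.0014, 0.00437 and 0.0255). Contig 11441 did not pass in that fit (edgeR adjusted p = 0.173), in which 35.3% of all tested contigs rose.

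Contigs 9761 and 16601, described as HSP90 and at low levels, had their highest values in fresh leaves. Contig 9761 had 1.33, 0.944 and 0.272 RPKM at 2%, against 13.4, 11.3 and 3.4 RPKM in fresh leaves, a fall of 3.21 (SE 0.69, edgeR adjusted p = 0.00198). It had 2.23, 1.55 and 2.79 RPKM in rehydrated leaves, below all fresh libraries. Contig 16601, named after its values were seen, had 0.443, 1.42 and 1.5 RPKM at 2%, against 14.6, 8.94 and 2.18 RPKM in fresh leaves, a fall of 2.73 (SE 0.68, edgeR adjusted p = 0.00484).

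HOP joins HSP70 to HSP90. As a sum, its contigs took 0.0412, 0.0323 and 0.0153% of reads in fresh leaves and 0.0214, 0.0213 and 0.0209% at 2%. In rehydrated leaves they took 0.0342, 0.0416 and 0.0261%. The 2% shares of HOP lay inside the fresh range. Of its 4 contigs, 3 fell at 2% against fresh, with a median log2 fold of -1.13 against -0.22 for all contigs, of which 34.9% fell. In rehydrated against 2% leaves 3 rose, with a median of 1.20 against 0.13 for all contigs, of which 31.1% rose. Both counts held without any 1 library. Contig 4680 had 54.4, 63.4 and 27.5 RPKM in fresh leaves, 39.1, 41.9 and 45.5 RPKM at 60%, 21.9, 24.1 and 19.7 RPKM at 2%, and 57.7, 76 and 45.9 RPKM in rehydrated leaves. Its 2% libraries lay below all others. It rose by 1.05 in rehydrated against 2% leaves (SE 0.27, edgeR adjusted p = 0.00607). The most abundant HOP contig, 1606, with 68.6% of HOP reads, passed no test, with 122, 145 and 91.9 RPKM in rehydrated leaves against 94.2, 92.7 and 93.8 RPKM at 2%. Of the 8 Fes1 and HSP70-binding contigs, nucleotide exchange factors of HSP70, 3 fell and 0 rose at 60% against fresh. This was 37.5% called, against 38.9% of all tested contigs. At 2% against fresh 2 fell and 0 rose, 25.0% called, against 60.9% of all tested contigs. Contig 19845, described as FES1, stayed within 16.9 to 32.5 RPKM. Contig 1698, an HSP70-binding protein, had 34.5, 16.7 and 14.6 RPKM in fresh leaves and 15.9 to 22.6 RPKM in all other libraries. Contig 35572 had 4.35, 35.5 and 0.718 RPKM in the 3 fresh libraries.

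The HSP100 members were highest at 60% for the most part, 4 of 6 for ClpB1, both for ClpB4 and 8 of 10 for the plastid members. ClpB1 is the cytosolic disaggregase, called HSP101 in plants and needed for survival of strong heat. Contig 17223, with 56.7% of ClpB1 reads, had 21.8, 0.818 and 0.934 RPKM in fresh leaves, 50, 40.8 and 44.4 RPKM at 60%, 19.5, 22.1 and 18.7 RPKM at 2%, and 19.8, 27.3 and 14.8 RPKM in rehydrated leaves. Fresh replicate 1 matched the level at 2%, and the other fresh libraries lay far below. With all libraries it did not pass at 60% against fresh (edgeR adjusted p = 0.0653), and without fresh replicate 1 its fold was 5.86 (SE 0.31, edgeR adjusted p = 4.25e-07).

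ClpB1 contig 38346 had 21.4, 14.3 and 18.5 RPKM at 60%, against 5.64, 0.298 and 0.17 RPKM in fresh leaves, and rose by 3.13 (edgeR adjusted p = 0.013), or by 6.32 without fresh replicate 1. Contig 21632 had 26.6, 25.6 and 25.3 RPKM at 60%, against 10.9, 0.451 and 0.368 RPKM in fresh leaves, and rose by 2.70 (edgeR adjusted p = 0.0388), a call lost without 10 of the 12 libraries, one at a time; without fresh replicate 1 it rose by 6.13. In all, 3 of the 6 ClpB1 contigs rose and 2 fell at 60% against fresh, beside 15.6 and 23.3% of all tested contigs. The ClpB1 contigs that fell were 5226 and 9358. Contig 5226 had 1.95, 2.38 and 2.93 RPKM at 60%, against 17.8, 12.5 and 7.23 RPKM in fresh leaves, and fell by 2.29 (SE 0.38, edgeR adjusted p = 0.000683). Contig 9358 fell by 2.76 (SE 0.61, edgeR adjusted p = 0.00459), which was -1.84 without fresh replicate 1. The same description thus covered contigs that moved in opposite directions, and whether they come from different genes was not tested.

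ClpB4 is the mitochondrial ClpB. Its contig 5486 had 23.7, 19.6 and 20.6 RPKM at 60%, against 8.21, 13.3 and 4.74 RPKM in fresh leaves, and rose by 1.42 (SE 0.28, edgeR adjusted p = 0.00232). At 2% it had 9.21, 9.64 and 9.08 RPKM and fell by 1.08 against 60% (SE 0.28, edgeR adjusted p = 0.00873). Of its reads 80.2% mapped to 1 place, as did 61.9% of those of the other ClpB4 contig, 34187, so reads of the pair may be divided between them. Contig 34187 rose by 1.27 at 60% against fresh, lost without 60% replicate 3, and fell by 1.26 at 2% against 60%.

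The plastid HSP100 proteins split by type. ClpD, known in Arabidopsis as ERD1 for its early response to dehydration, had 7 contigs. At 2% against 60% 6 of them fell, beside 25.0% of all tested contigs, and 5 to 7 did when any 1 library was left out. The median log2 fold of the 7 was -2.26, against -0.13 for all contigs. Contig 17351 had 4.68, 2.69 and 4.26 RPKM at 2%, against 20.8, 22.5 and 21.9 RPKM at 60%, and fell by 2.38 (SE 0.47, edgeR adjusted p = 0.00201). Contig 2874 fell by 2.26 (SE 0.43, edgeR adjusted p = 0.00148). Contig 1713, with 88.7% of ClpD reads, had 115, 67.8 and 11.3 RPKM in fresh leaves, 175, 161 and 138 RPKM at 60%, 71.6, 63.1 and 55.6 RPKM at 2%, and 48.7, 49.5 and 43.4 RPKM in rehydrated leaves. Its 60% libraries lay above all others, but no comparison passed the test with all libraries. Without fresh replicate 1 it rose by 2.24 at 60% against fresh (edgeR adjusted p = 0.00697) and fell at 2% against 60% (edgeR adjusted p = 0.0389). Without fresh replicate 3 it rose by 0.84 at 60% against fresh (edgeR adjusted p = 0.026) and fell by 1.12 at 2% against 60% (edgeR adjusted p = 0.00233), by 0.88 in rehydrated against 2% leaves (edgeR adjusted p = 0.00671) and by 1.16 in rehydrated against fresh leaves (edgeR adjusted p = 0.0146). With those 2 states alone in the fit, it also fell at 2% against 60% (log2 fold -1.17, edgeR adjusted p = 1.91e-07). At 60% against fresh 1 ClpD contig rose (15.6% of all tested contigs), a call lost without 60% replicate 1 or 2. Without fresh replicate 2, 5 rose (20.9% of all). At 2% against fresh 4 fell (34.9% of all tested contigs), and 1 did without fresh replicate 2, where 35.1% of all tested contigs fell.

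ClpC1, which feeds the Clp protease of the stroma, rose in late drying. Contig 4784 had 159, 182 and 210 RPKM in fresh leaves, 191, 194 and 222 RPKM at 60%, 483, 524 and 569 RPKM at 2%, and 259, 277 and 216 RPKM in rehydrated leaves. The 2% libraries lay above all others, while fresh and 60% libraries overlapped. It rose by 1.74 at 2% against fresh (SE 0.17, edgeR adjusted p = 7.29e-06), rose also against 60% (edgeR adjusted p = 5.37e-05), and fell by 1.46 in rehydrated against 2% leaves (SE 0.17, edgeR adjusted p = 2.69e-05).

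Outside the 142, 8 contigs are described as the ClpA homolog CD4B, which is the ClpC protein of tomato. Contig 252 among them, looked up after the ClpC1 values were seen, had 563, 572 and 556 RPKM at 2%, against 122, 176 and 191 RPKM in fresh leaves, and rose by 2.02 (SE 0.19, edgeR adjusted p = 4.62e-06), the highest fold of the 8. In all 6 of the 8 rose in that comparison, the others by 0.48 to 1.77, while contigs 8993 and 38975 did not pass, with log2 folds of -0.11 and -0.07. ClpB3, the plastid disaggregase, passed no test with all libraries: contig 2343, with 32.4% of all HSP100 reads, had 51.1, 43.7 and 117 RPKM in fresh leaves, 72.4, 71.1 and 76.7 RPKM at 60%, 64.9, 68.2 and 63.6 RPKM at 2%, and 87.6, 77.7 and 72.5 RPKM in rehydrated leaves. Fresh replicate 3 lay above every other library, and without it the contig rose by 0.70 at 60% (SE 0.17, edgeR adjusted p = 0.00833) and by 0.74 at 2% against fresh (SE 0.17, edgeR adjusted p = 0.00367). ClpC contig 47359 was scarce, with 4.91, 4.1 and 3.03 RPKM at 60% against 0, 0.891 and 1.53 RPKM in fresh leaves, and rose (edgeR adjusted p = 0.0121).

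**Figure D5:**
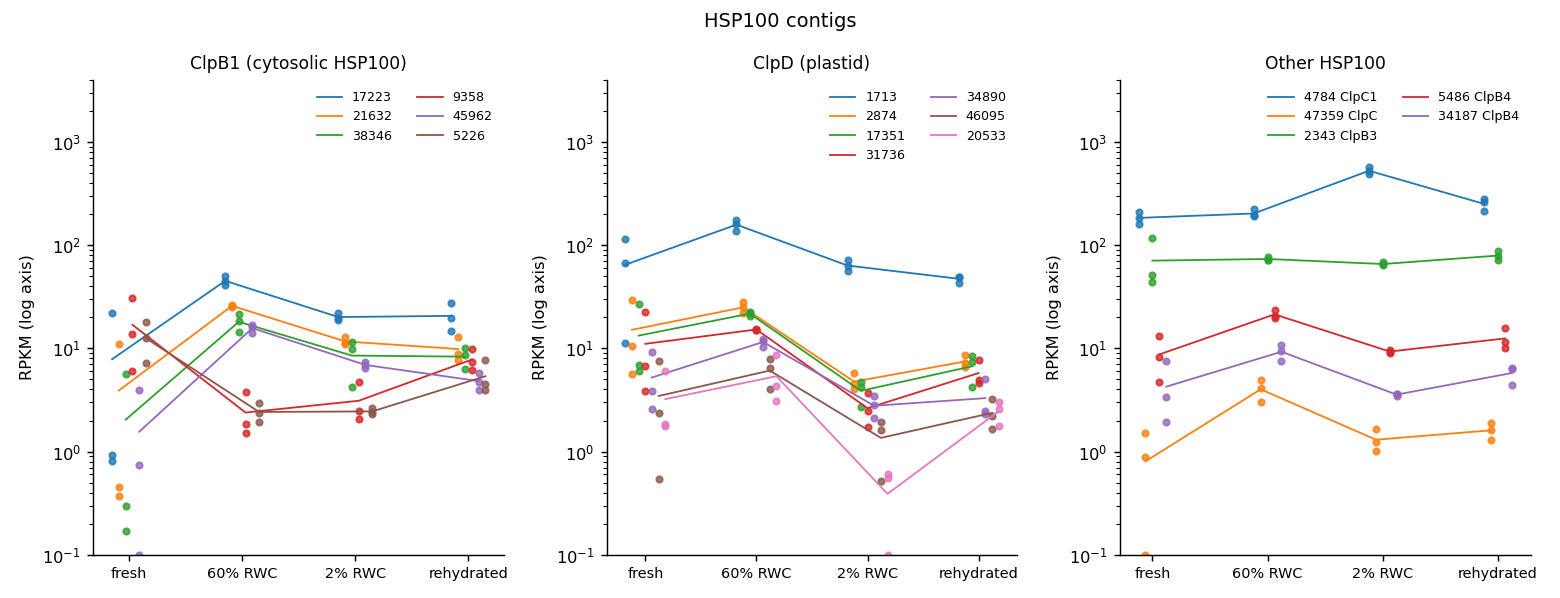
Levels of HSP100 contigs in RPKM on a log axis across the 4 states, with points for libraries, lines through the means of 3 and values of 0 drawn at the lower edge. ClpB1 contigs 17223 and 38346 and the ClpD contigs are highest at 60%, ClpC1 contig 4784 is highest at 2%, and ClpB1 contigs 5226 and 9358 are highest in fresh leaves.

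Rehydrated leaves differed from fresh leaves in few contigs whose calls held. BiP contig 1592 and contig 39236 were higher, and contigs 8809 and 7269 were lower. These 4 calls were the ones, of 22 among members in this comparison, that held without any 1 library. With only the 2 states in the fit, contig 39236 passed (edgeR adjusted p = 0.0185). Contigs 1592, 8809 and 7269 did not pass there (edgeR adjusted p = 0.101, 0.0943 and 0.0937). Contig 1762, whose fresh libraries spread widely, did not pass here with all libraries, with 210, 306 and 161 RPKM in rehydrated leaves, against 548, 29.5 and 20.3 RPKM in fresh leaves, and rose by 3.09 without fresh replicate 1 (edgeR adjusted p = 0.000157).

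Partners of these chaperones were counted by description, members left out. Of 20 HSP90 co-chaperone contigs (FKBP62-like isomerases, SGT1 and activators of the HSP90 ATPase), 14 fell at 2% against fresh, with a median log2 fold of -1.36 against -0.22 for all contigs, of which 34.9% fell. After rehydration 14 of the 20 rose and 1 fell against 2% leaves, with a median of 1.37, while 31.1% of all contigs rose and 25.4% fell. Of 181 J protein contigs tested, which bring clients to HSP70, 58 rose and 48 fell at 2% against fresh, with a median of 0.12, beside 26.0 and 34.9% of all contigs.

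ER folding enzymes other than members (calreticulin, calnexin and disulfide isomerases, 41 tested) rose in 18 and fell in 7 cases in rehydrated against 2% leaves, with a median log2 fold of 0.51, while 31.1% of all contigs rose and 25.4% fell with a median of 0.13. Chaperonin contigs (74 tested), the barrel-shaped folding machines of plastid, mitochondria and cytosol, rose in 31 and fell in 1 case in the same comparison, with a median of 0.53. Heat stress transcription factors, which activate many HSP genes, numbered 55 tested contigs, and 23 rose and 6 fell at 2% against fresh (median 0.83), beside 26.0 and 34.9% of all contigs. After rehydration 2 of them rose and 24 fell against 2% leaves (median -0.94), beside 31.1 and 25.4% of all contigs. Nucleotide exchange factors outside the members (32 tested) had 11 higher and 10 lower at 2% against fresh, 65.6% called in all, against 60.9% of all contigs.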

How the data were processed

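Leaf RNA was sequenced as 75 bp paired-end reads from stranded libraries of 3 leaf pools per state, per the labels' protocols. The deposited table gives for each library the counts of total and of unique reads per contig and the RPKM values; RPKM recomputed from the deposited counts and contig lengths differed by at most 1.6e-08 as a relative difference. Of the reads, 98.52 to 98.71% were unique. The aligner, the assembler, the counting program and its strand setting were not given in the sources used here.

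Counts of total reads were fitted in R 4.3.3 with edgeR 4.0.16 (limma 3.58.1): TMM scaling, filterByExpr with a minimum count of 10 and a minimum total of 15, 1 robust quasi-likelihood fit with a mean for each of 4 states, two-sided tests and Benjamini-Hochberg adjustment over 46494 contigs; 1551 contigs were left out. A call is an adjusted p below 0.05. SE is the absolute log2 fold divided by the square root of F. The script was tested on simulated data. DESeq2 1.42.0, its size factors in edgeR, no filter, unique reads, a replicate block, a fit to the states compared only, stricter member definitions and leaving out each library were alternatives. No pair of libraries of a state agreed within sampling noise (lowest chi-square per degree of freedom 4.97).

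The members and lists were chosen with earlier results of these data known. Contigs named in the text are, by rule, up to 4 with the highest level in each family and compartment, the 3 called members with the highest and the 3 with the lowest fold in each comparison among members above the median level, and every HSP100 member above it, 49 in all, each of which the text names; others are named for their description or their spread, after their values were seen. Family words were corrected for HSC80 and HSP70-binding proteins after the descriptions were read, and 12 contigs that only share letters with a partner name were dropped from the partner lists. No sequences are printed.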

Additional observations from a re-analysis of the deposited data

How the results depend on the processing

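The numbers of members called higher or lower depended on the fit. With only the states compared in the fit, 13 rose and 16 fell at 60% against fresh (9.97 and 16.4% of all tested contigs). Such fits gave 18 higher at 2% against fresh (21.6% of all). They gave 59 higher and 44 lower at 2% against 60% (32.0 and 33.4% of all tested contigs). Between rehydrated and 2% leaves they gave 38 higher and 51 lower (35.3 and 30.9% of all). In rehydrated against fresh leaves 1 rose and 0 fell by edgeR in such a fit (22 and 15 at an unadjusted p below 0.05). There 0.843% of all tested contigs were called. DESeq2 on all libraries gave 26 higher and 18 lower in that comparison, beside 6.01 and 9.62% of all contigs it tested. Of the 78 members of at least 500 bases, 17 rose and 9 fell at 60% against fresh and 18 and 19 at 2% against fresh. At 2% against 60% 10 of them rose and 16 fell, and 12 and 15 in rehydrated against 2% leaves. In rehydrated against fresh leaves 4 of them fell, and 45 changed across the 4 states. Of the 97 members whose best hit named the family, 17 fell at 60% against fresh and 12 rose at 2% against 60%. No share of all contigs is set beside the counts of these subsets. Leaving out 1 library at a time gave 20 to 42 higher and 15 to 39 lower at 60% against fresh, 24 to 56 and 31 to 44 at 2% against fresh, 13 to 33 and 17 to 35 at 2% against 60%, 19 to 32 and 22 to 50 in rehydrated against 2% leaves, 2 to 34 and 2 to 20 in rehydrated against fresh leaves, and 70 to 111 across the 4 states. Without fresh replicate 1, direction turned for contigs 1762, 17709 and 1791 in rehydrated against fresh leaves (log2 folds over single omissions -0.66 to 3.09, -0.69 to 1.99 and -0.60 to 2.27) and for contigs 1156 and 1698 at 2% against fresh leaves (-0.71 to 0.90 and -0.27 to 0.57). A replicate block gave 43 higher at 2% against fresh and 4 lower in rehydrated against fresh leaves, with no share of all contigs beside them. Same-numbered libraries correlated between -0.151 and 0.253, so the numbers were not taken to pair the pools. Of 4410 alternative values for named contigs, 4028 kept direction and side of the threshold. The cause of these changes was not tested. Counts of calls against fresh leaves rest on 3 unlike pools. The 4 states share 1 estimate of the spread in the main fit, so comparisons without fresh leaves draw on these pools too. At 2% against 60% the main fit gave 19 higher and 27 lower, against 59 and 44 with only those states in the fit.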
